A study of Homo sapiens with 42 samples.

Results

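CDK12, CDK13 and CCNK, the gene of cyclin K, were followed across the 14 groups of a treatment study in HAP1 cells. They were taken by symbol and are 3 of the 26228 gene rows of the deposited expression table. All 3 passed the filter on low values, which 12816 genes passed. CDK12 and CDK13 are related kinases that each bind cyclin K and phosphorylate the C-terminal domain (CTD) of the largest subunit of RNA polymerase II during elongation. CDK12 with cyclin K is known for sustaining the full-length transcription of long genes, many DNA repair genes among them, by limiting early cleavage and polyadenylation. CDK7 acts earlier, as the kinase of the general transcription factor TFIIH and as the kinase that activates the cell cycle kinases.

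HAP1 is a near-haploid adherent line derived from a chronic myelogenous leukemia. A line labelled HAP1 CDK7 C312S, in which the cysteine of CDK7 that covalent inhibitors bind is a serine, was set against HAP1 WT. Each line received for 24 h either THZ531 (which binds CDK12 and CDK13 covalently), THZ1 (which binds CDK7 covalently and CDK12 and CDK13 as well), YKL at 500 nM or 2 µM, a combination with YKL at 500 nM or 2 µM, or DMSO. YKL is the label of the study's CDK7 inhibitor, and the table's column names show that a combination held THZ531 and YKL. Doses of THZ531 and THZ1 are not stated in the labels, and neither is whether the C312S line is 1 clone. Each group had 3 libraries of polyadenylated RNA, 42 in all. The labels do not call the replicates separate cultures, so all p-values rest on the spread among these libraries, which may be technical.

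The RefSeq windows of 250 bases before the annotated start of each gene (GRCh38.p14, plus strand) are printed as a description. They lie at chr17:39461236-39461485 for CDK12, chr7:39950006-39950255 for CDK13 and chr14:99481159-99481408 for CCNK. Capitals mark matches, on either strand, to TCTCGCGA, TGACG (the half-site of the cAMP response element), CCAAT (the CCAAT box) and GGGCGG (the GC box). TATAAA (the TATA box) was searched as well. These motifs were chosen after the sequences had been seen.
CDK12: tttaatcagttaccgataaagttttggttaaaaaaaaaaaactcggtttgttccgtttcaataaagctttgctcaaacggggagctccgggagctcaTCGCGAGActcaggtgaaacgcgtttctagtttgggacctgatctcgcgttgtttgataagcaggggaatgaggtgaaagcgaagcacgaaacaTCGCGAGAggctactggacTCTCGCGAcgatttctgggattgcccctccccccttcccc
CDK13: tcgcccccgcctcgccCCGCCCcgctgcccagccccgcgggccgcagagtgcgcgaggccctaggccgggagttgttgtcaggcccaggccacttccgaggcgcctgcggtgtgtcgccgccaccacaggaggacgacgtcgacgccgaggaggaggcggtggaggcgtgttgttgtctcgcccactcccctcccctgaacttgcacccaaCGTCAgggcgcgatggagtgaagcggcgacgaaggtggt
CCNK: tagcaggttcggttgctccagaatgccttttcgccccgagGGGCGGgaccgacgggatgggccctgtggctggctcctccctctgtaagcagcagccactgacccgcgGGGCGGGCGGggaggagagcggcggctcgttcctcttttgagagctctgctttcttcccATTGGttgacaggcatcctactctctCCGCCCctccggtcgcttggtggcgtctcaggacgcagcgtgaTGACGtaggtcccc
The CDK12 window has 48.8% G and C, against 72.0% for CDK13 and 65.2% for CCNK. It holds 3 matches to TCTCGCGA, whose first bases lie 153, 59 and 40 bases before the start. That motif is in 1.03% of 35116 windows of the same kind, and in neither of the other windows. The CDK13 window holds 1 TGACG and 1 GGGCGG. The CCNK window holds 1 TGACG, 1 CCAAT and 4 GGGCGG, of which 2 overlap. TGACG is in 21.2% of all windows, CCAAT in 32.0%, GGGCGG in 42.6% and TATAAA, which none of the 3 windows holds, in 10.7%. A match of letters is a description and was not tested as a binding site, and no link between the windows and the levels of the genes was tested.

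The values are FPKM (fragments scaled to transcript length and to the mapped fragments of a library), so levels of different genes can be set side by side per length. The depth of the libraries is unknown. The libraries of C312S DMSO and C312S THZ1 stood apart. Their FPKM summed over genes to 794400 ± 15200 and 852300 ± 52900 (SD, n = 3 each), against 556800 to 591100 as means of the remaining C312S groups and 455900 to 628300 as means of the WT groups. In 5 of the 6 C312S comparisons with DMSO, all but THZ1, a gene's change followed the GC content of its transcript (Spearman rho across 12586 genes between 0.46 and 0.59). In WT cells that rho was -0.46 with THZ531, -0.46 with THZ531 plus 2 µM YKL and between -0.30 and -0.03 in the other 4 comparisons with DMSO. Spike-in RNAs over the gene level, on a log2 scale, were 2.44 higher in WT THZ1 cells than in WT DMSO cells, 1.11 higher with THZ531 plus 2 µM YKL and 0.68 higher with 500 nM YKL, and 0.78 to 1.55 lower than DMSO in the same 5 C312S groups. Fewer cells and less RNA per cell cannot be told apart in such data. All changes below are therefore relative to the other genes of the same library, unless a spike-in scale is named, and beyond the alternative scales given beside the results the part of these library differences was not tested. Of 10 blood cell markers, 1 averaged over 1 FPKM (KIT, mean 1.22 FPKM) and 6 were under 0.1 FPKM, with PTPRC at 0.014 FPKM and HBG1 at 0 in every library. The summed level of that list was between 1.23 and 3.09 FPKM in a library. Of 10 epithelial and fibroblast markers, 6 were over 1 FPKM, led by VIM at 316 FPKM, while EPCAM, CDH1, COL1A2 and DCN were at or near 0. The markers SPI1, GATA1, MPO and ITGAM of blood cells were also near 0, although the source label names a leukemia.

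CCNK had the highest level of the 3 genes in every group, followed by CDK12 and then CDK13. The FPKM of CCNK averaged between 25.4 ± 0.873 in C312S DMSO cells and 42.6 ± 2.01 in WT THZ1 cells (SD, n = 3, here and for all means below). CDK12 averaged between 13.5 ± 0.478 FPKM in C312S DMSO cells and 27.2 ± 1.19 FPKM in WT THZ531 cells. CDK13 averaged between 6.3 ± 0.0912 FPKM in C312S DMSO cells and 13.2 ± 0.613 FPKM in WT THZ1 cells. The group means of CDK12 thus spanned 2.01-fold, those of CDK13 2.1-fold and those of CCNK 1.68-fold. With equal total FPKM the spans were 3.03-fold, 2.82-fold and 2.44-fold, and on the spike-in scale 6.46-fold, 5.37-fold and 5.71-fold.

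In the deposited FPKM the order of the groups differed between the genes. For CDK12, WT THZ531 stood first, with libraries apart from those of the next group, C312S THZ531 (24.5 ± 1.24 FPKM). The next 2 groups, C312S with THZ531 plus 500 nM YKL (24.4 ± 0.479 FPKM) and WT THZ1 (24.0 ± 0.308 FPKM), overlapped with it in turn. The next 6 means, between 19.4 and 21.7 FPKM, each overlapped their neighbour. They were C312S YKL 500 nM, C312S YKL 2 µM, C312S with THZ531 plus 2 µM YKL, WT DMSO, C312S THZ1 and WT with THZ531 plus 500 nM YKL. Below a gap came WT YKL 500 nM, WT YKL 2 µM and WT with THZ531 plus 2 µM YKL, with overlapping means between 15 and 15.8 FPKM. C312S DMSO was last and apart. For CDK13, only the ends of the order were apart from their neighbours, and 11 of 13 neighbouring pairs overlapped. For CCNK 9 of 13 neighbouring pairs overlapped, as for CDK12. WT THZ1, first for CDK13 and CCNK as deposited, was the lowest group for CDK12 and CCNK on the spike-in scale (6.84 and 12.1 FPKM) and for CDK13 the lowest but C312S DMSO (3.75 and 3.56 FPKM). WT THZ531 stayed first for CDK12 on the spike-in and total FPKM scales.

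**Figure D1:**
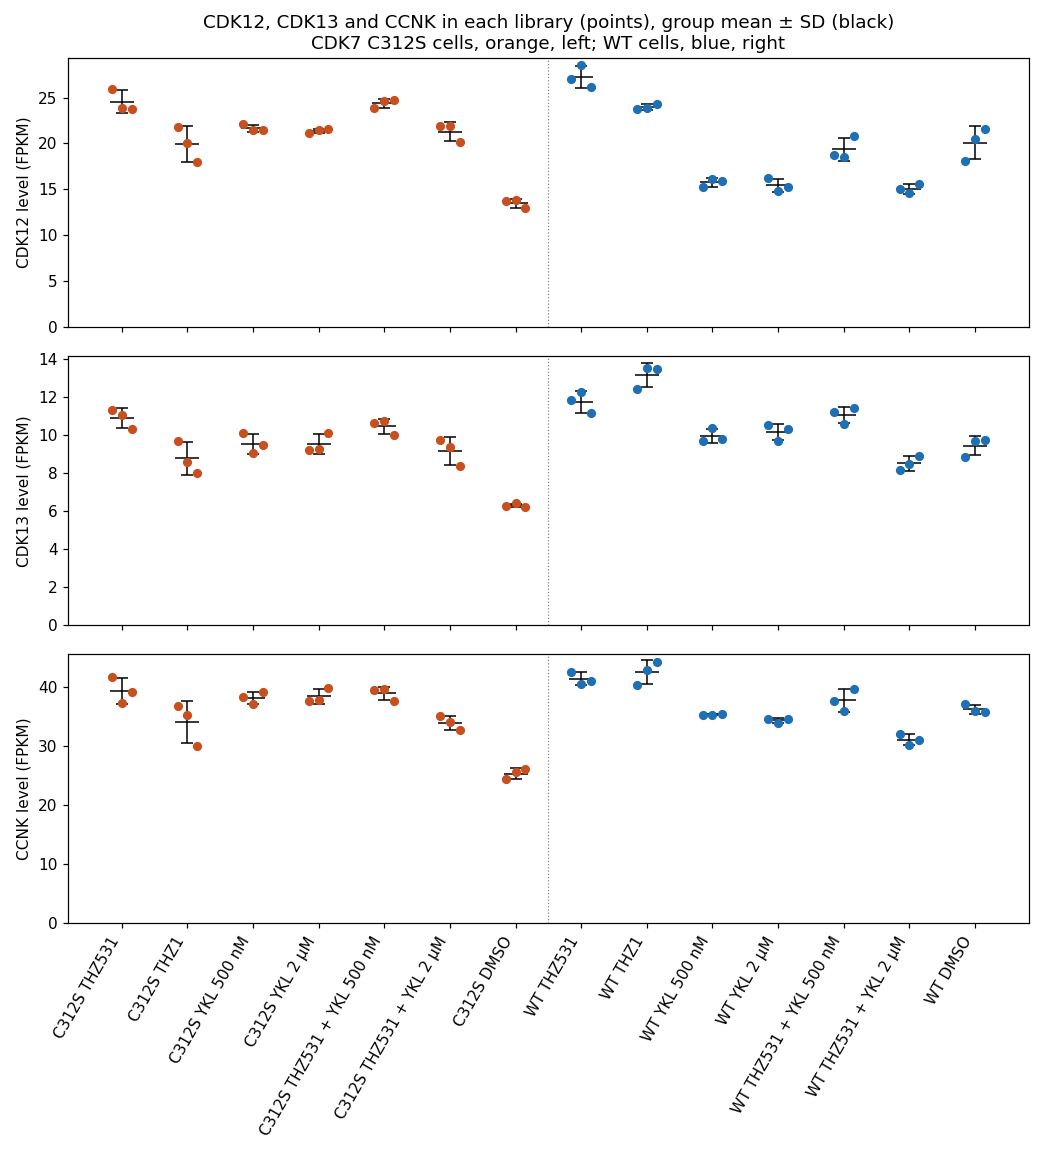
FPKM (vertical axes, from 0) of CDK12, CDK13 and CCNK in each of the 42 libraries (points) of the 14 groups (horizontal axis), with group means and SD in black. CDK12 averages between 15 and 15.8 FPKM in WT cells given YKL alone or THZ531 plus 2 µM YKL, and C312S DMSO is lowest for all 3 genes.

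In WT cells given THZ531 all 3 genes rose, CDK12 most. CDK12, the kinase with the stronger known role at DNA repair genes, had 27.0, 28.5 and 26.2 FPKM in the THZ531 libraries, against 18.1, 20.5 and 21.6 FPKM in the DMSO libraries. The groups did not overlap. The log2 change was 0.43 (95% interval 0.31 to 0.54, adjusted p = 2.89e-07). CDK13, its paralog, had 11.8, 12.3 and 11.1 FPKM with THZ531, against 8.85, 9.7 and 9.76 FPKM with DMSO, and these groups did not overlap either. Its log2 change was 0.29 (0.17 to 0.40, adjusted p = 0.000139). CCNK, the shared cyclin, had 42.7, 40.6 and 41.1 FPKM with THZ531, against 37.1, 36 and 35.8 FPKM with DMSO, a log2 change of 0.19 (0.09 to 0.29, adjusted p = 0.00277). In this comparison 24.0% of the tested genes were called higher, so a call is common. The median of all tested genes changed by 0.01. With trends on GC content and length removed, the changes were 0.34 for CDK12, 0.20 for CDK13 and 0.15 for CCNK, and all 3 remained called. On the spike-in scale CCNK kept its direction but missed the threshold (0.26, adjusted p = 0.13).

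THZ1 in WT cells was also followed by higher values of the 3 genes in the deposited FPKM, with CDK13 first. CDK13 had 12.4, 13.5 and 13.5 FPKM with THZ1, against 8.85, 9.7 and 9.76 FPKM with DMSO, with no overlap and a log2 change of 0.44 (0.32 to 0.56, adjusted p = 5.26e-08). CDK12 changed by 0.25 (adjusted p = 0.000208) and CCNK by 0.22 (adjusted p = 2e-04), among 34.0% of genes called higher. On the spike-in scale all 3 turned to the opposite direction, to -2.02 for CDK12, -1.71 for CDK13 and -2.11 for CCNK, where the median gene was at -1.99. That scaling multiplies all genes of a library by 1 factor, and adding 1 before taking logs compresses the shift of low genes more, so how far a gene lies from the median gene differs, here and below, from its distance in the deposited FPKM. Scaled to equal total FPKM, CDK12 (0.09, adjusted p = 0.336) and CCNK (0.06, adjusted p = 0.484) were no longer called, with the median gene at -0.15.

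YKL alone gave a different pattern in WT cells: CDK12 fell and its partners were not called. CDK12 had 15.2, 16.1 and 15.9 FPKM with 500 nM YKL and 16.2, 14.8 and 15.3 FPKM with 2 µM YKL, against 18.1, 20.5 and 21.6 FPKM with DMSO. The treated libraries all lay below the DMSO libraries. The log2 change of CDK12 was -0.33 (-0.44 to -0.21, adjusted p = 7.08e-06) at 500 nM and -0.36 (-0.47 to -0.24, adjusted p = 1.61e-06) at 2 µM, where 31.7% and 33.5% of all genes were called lower. CDK13 changed by 0.07 (-0.04 to 0.19, adjusted p = 0.278) at 500 nM and by 0.10 (-0.02 to 0.22, adjusted p = 0.129) at 2 µM. CCNK changed by -0.03 (-0.14 to 0.07, adjusted p = 0.564) at 500 nM and by -0.07 (-0.18 to 0.03, adjusted p = 0.188) at 2 µM. The CCNK libraries, at 35.3 to 35.6 FPKM with 500 nM and 33.9 to 34.7 FPKM with 2 µM, also all lay below the DMSO libraries (35.8 to 37.1 FPKM). The intervals of CDK13 and CCNK leave room for modest changes of either gene. These calls depend on the scale: with equal total FPKM, where the median gene moved by 0.20 and 0.25, CDK12 was at -0.10 (adjusted p = 0.253) and -0.08 (adjusted p = 0.371), CDK13 was called higher and CCNK turned to higher. On the spike-in scale at 500 nM, CDK13 turned to lower (-0.53) and CCNK was called lower (-0.68), with the median gene at -0.58. The order of the genes, CDK12 lowest and CDK13 highest, was the same on each of these scales. Between the 2 doses of YKL none of the 3 genes was called in either line in the deposited FPKM, where 6.18% of all genes were called in WT and 3.67% in C312S, 792 and 470 genes. The WT count was 360 to 436 without 2 µM replicates 1 or 3 or 500 nM replicates 1 or 2, and the C312S count moved by over 1.5 times without any 1 of the 6 libraries, to 176 at the lowest. With spike-in scaling 11504 genes were called in WT, all 3 members among them and higher at 2 µM (0.49 for CDK12, 0.53 for CDK13 and 0.49 for CCNK, with the median gene at 0.47), and 28 in C312S.

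**Figure D2:**
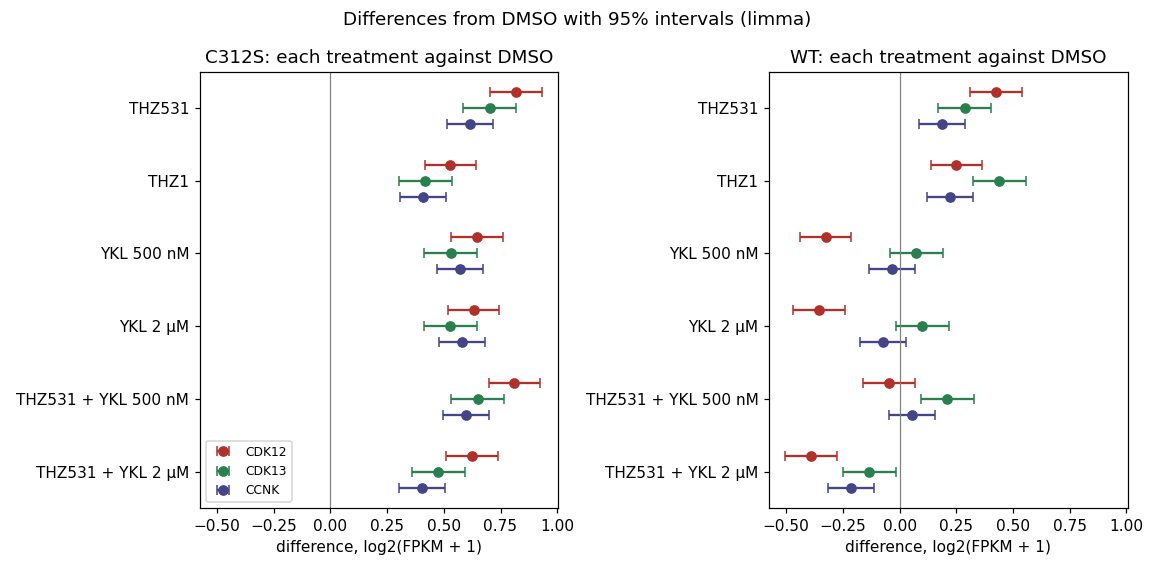
Differences from DMSO in log2(FPKM + 1) (horizontal axes) for CDK12, CDK13 and CCNK, with 95% intervals, for each treatment (vertical axis) in C312S cells (left) and WT cells (right). In WT cells CDK12 is on the right of 0 with THZ531 (0.43) and on the left with YKL (-0.33 and -0.36), while in C312S cells all 18 points are on the right.

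The combinations separated the genes by YKL dose in WT cells. With THZ531 plus 500 nM YKL, CDK12 had 18.7, 18.6 and 20.8 FPKM, within the range of the DMSO libraries, and its log2 change from DMSO was -0.05 (-0.16 to 0.07, adjusted p = 0.46). It was called lower on the spike-in scale (-0.42, adjusted p = 0.00418). Removal of the GC and length trends also gave a call (-0.12, adjusted p = 0.0177). CDK13 had 11.2, 10.6 and 11.4 FPKM, all above the DMSO libraries, and rose by 0.21 (adjusted p = 0.00185, 34.0% of all genes called higher), a direction that flipped on the spike-in scale (-0.15, adjusted p = 0.276; median gene -0.34). CCNK changed by 0.06 (adjusted p = 0.322), but was called higher with equal total FPKM (0.22, adjusted p = 0.00725) and lower on the spike-in scale (-0.32, adjusted p = 0.0272). With THZ531 plus 2 µM YKL, CDK12 had 15, 14.6 and 15.6 FPKM and CCNK 32.1, 30.3 and 31.1 FPKM, all below the DMSO libraries. CDK12 fell by 0.39 (adjusted p = 1.97e-07) and CCNK by 0.21 (adjusted p = 0.000266) on the log2 scale, where 38.1% of all genes were called lower. CDK13 had 8.14, 8.45 and 8.91 FPKM, and its change of -0.14 (adjusted p = 0.0332) was lost without any of 4 libraries: -0.11 without combination replicate 1, -0.13 without combination replicate 2, -0.12 without DMSO replicate 2 and -0.11 without DMSO replicate 3 (adjusted p = 0.127, 0.0686, 0.105 and 0.114). It was also lost with GC and length trends removed (-0.07, adjusted p = 0.141).

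Set against THZ531 alone, adding YKL lowered CDK12 in WT cells, more at the higher dose. The log2 change of CDK12 was -0.47 (-0.59 to -0.36, adjusted p = 1.17e-08) with 500 nM YKL and -0.82 (-0.93 to -0.70, adjusted p = 2.98e-14) with 2 µM YKL, and it stayed called on the total FPKM and spike-in scales. With 500 nM YKL, CDK13 changed by -0.08 (-0.20 to 0.04, adjusted p = 0.241), and was called lower on the spike-in scale (-0.51, adjusted p = 0.000347, with the median gene at -0.40). CCNK changed by -0.13 (adjusted p = 0.0239), a call lost without THZ531 replicate 1 (-0.11, adjusted p = 0.0958) and without combination replicate 1 (-0.13, adjusted p = 0.0545) or replicate 2 (-0.10, adjusted p = 0.135), and with equal total FPKM (-0.04, adjusted p = 0.647). With 2 µM YKL, CDK13 fell by 0.42 (adjusted p = 8.69e-08) and CCNK by 0.40 (adjusted p = 1.59e-08). Genes called lower were 29.7% of all with 500 nM and 35.3% with 2 µM. Between the combinations, 2 µM against 500 nM, all 3 genes fell, by 0.34 (CDK12), 0.34 (CDK13) and 0.27 (CCNK), with adjusted p of 6.62e-06, 8.84e-06 and 3.43e-05 and 28.0% of all genes called lower.

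Set against YKL alone, adding THZ531 in WT cells raised CDK12 at 500 nM YKL, by 0.28 (0.17 to 0.39, adjusted p = 0.000146, 25.5% of all genes called higher). At 2 µM YKL, CDK12 changed by -0.03 (-0.15 to 0.08, adjusted p = 0.595), while CDK13 fell by 0.23 (adjusted p = 0.000572, 34.7% called lower). CDK12 was called lower there with equal total FPKM (-0.36, adjusted p = 0.000171) and on the spike-in scale (-0.98, adjusted p = 1.47e-08), with the median gene at -0.27 and -0.82 on those scales. CCNK changed by -0.14 at 2 µM (adjusted p = 0.0135), a call lost without combination replicate 2 (-0.12, adjusted p = 0.0617). CDK13 at 500 nM YKL changed by 0.14 (adjusted p = 0.0479), and without combination replicates 1 or 3 or YKL replicates 1 or 3 its adjusted p was 0.11, 0.149, 0.142 and 0.113, at changes of 0.13, 0.12, 0.12 and 0.13. CCNK at 500 nM YKL changed by 0.09 (adjusted p = 0.135). Averaged over no YKL, 500 nM and 2 µM YKL, THZ531 in WT cells raised CDK12 by 0.22 (0.16 to 0.29, adjusted p = 2.9e-07, 37.9% of all genes called higher), against 0.06 for CDK13 (adjusted p = 0.0837) and 0.05 for CCNK (adjusted p = 0.152). On the spike-in scale that mean effect on CDK12 was 0.02 (adjusted p = 0.86) and that on CCNK turned to -0.17, with the median gene at -0.17.

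**Figure D3:**
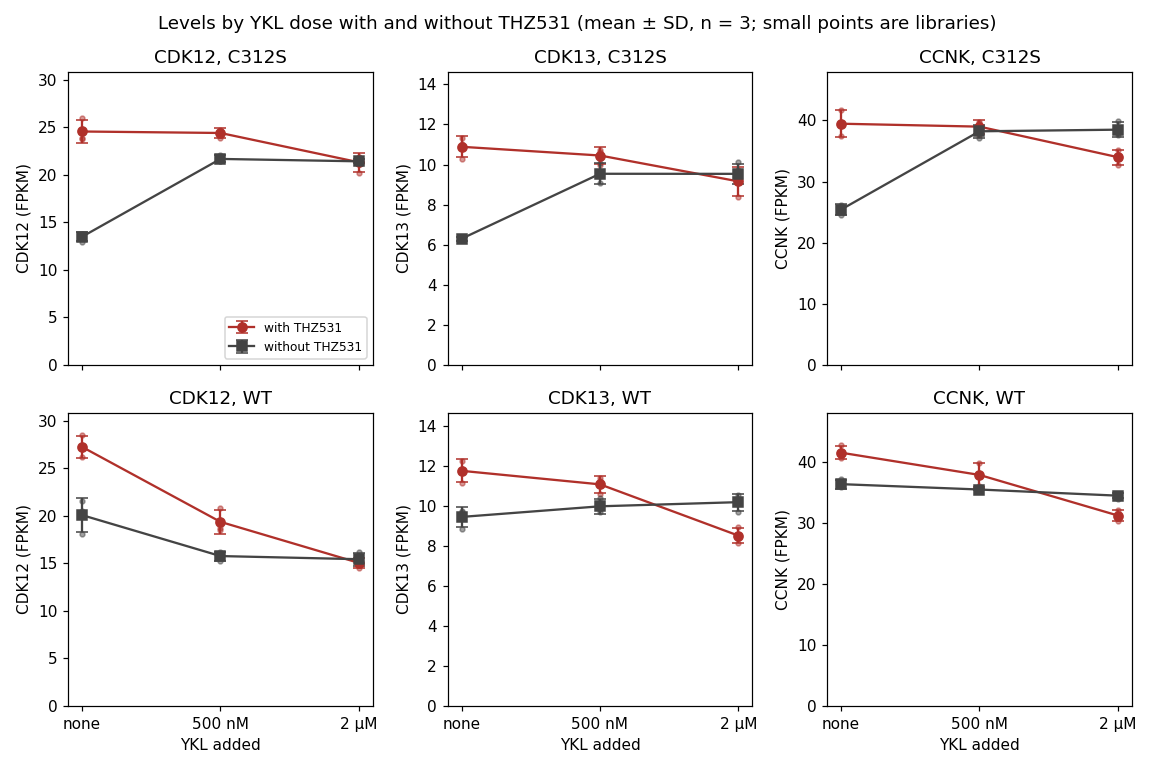
FPKM (vertical axes, from 0) of CDK12, CDK13 and CCNK by added YKL (none, 500 nM, 2 µM) with THZ531 (red circles) and without it (dark squares), in C312S cells (top) and WT cells (bottom), as mean ± SD with libraries as small points. In WT cells CDK12 steps down along the THZ531 line (27.2, 19.4 and 15 FPKM), and in C312S cells the lowest point of each panel is DMSO.

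In C312S cells all 3 genes were higher with every treatment than with DMSO. THZ531 gave CDK12 levels of 26, 23.9 and 23.8 FPKM, against 13.7, 13.8 and 12.9 FPKM with DMSO, a log2 change of 0.82 (0.71 to 0.93, adjusted p = 4.43e-14). CDK13 had 11.3, 11.0 and 10.3 FPKM with THZ531, against 6.25, 6.4 and 6.24 FPKM with DMSO (0.70, adjusted p = 2.06e-12). CCNK had 41.8, 37.4 and 39.2 FPKM with THZ531, against 24.5, 25.6 and 26.2 FPKM with DMSO (0.61, adjusted p = 1.74e-12). None of these groups overlapped. Over the 6 treatments the log2 changes were 0.53 to 0.82 for CDK12, 0.42 to 0.70 for CDK13 and 0.41 to 0.61 for CCNK, where the share of all genes called higher was 34.6% with THZ531, 33.9% with THZ1, 36.9% with 500 nM YKL, 36.6% with 2 µM YKL, 35.0% with THZ531 plus 500 nM YKL and 32.8% with THZ531 plus 2 µM YKL. With equal total FPKM those ranges were 0.42 to 1.29 for CDK12, 0.31 to 1.11 for CDK13 and 0.31 to 1.09 for CCNK, with the median gene between -0.06 and 0.36. With spike-in scaling they were 0.31 to 2.34, 0.20 to 2.12 and 0.19 to 2.18, with the median gene between -0.14 and 1.27, lowest with THZ1 and highest with THZ531. All 6 share the C312S DMSO libraries, which stood apart in total FPKM and in GC trend. With trends on GC content and length removed, the changes with THZ531 were 0.64 for CDK12, 0.44 for CDK13 and 0.47 for CCNK, and remained called. Averaged over the 3 YKL levels, the change with THZ531 in C312S cells was 0.33 for CDK12, 0.26 for CDK13 and 0.16 for CCNK (adjusted p = 2.03e-09, 2.88e-07 and 5.29e-05, 22.1% of all genes called higher). That mean joins unlike levels. Without YKL, where the C312S DMSO libraries are the reference, the changes were 0.82, 0.70 and 0.61. At 500 nM YKL they were 0.16, 0.12 and 0.03, and at 2 µM YKL -0.01, -0.05 and -0.17. With THZ1 the changes missed the threshold on the spike-in scale, at 0.31 for CDK12, 0.20 for CDK13 and 0.19 for CCNK (adjusted p = 0.0542, 0.183 and 0.258).

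Comparisons that do not use the C312S DMSO libraries gave fewer calls of the 3 genes in the deposited FPKM. With THZ531 plus 500 nM YKL against THZ531 in C312S cells, the changes were -0.01 for CDK12, -0.05 for CDK13 and -0.02 for CCNK (adjusted p = 0.994, 0.866 and 0.972), with intervals of -0.12 to 0.11, -0.17 to 0.06 and -0.12 to 0.09. All 3 were called lower on the spike-in scale, at -0.38, -0.41 and -0.39 (adjusted p = 0.0106, 0.00514 and 0.00977), with the median gene at -0.34. In the deposited FPKM 0.577% of all genes were called, 74 genes, and 28 to 45 without single libraries that moved the count by over 1.5 times, which were THZ531 replicates 1, 2 and 3 and combination replicates 2 and 3. With THZ531 plus 2 µM YKL against THZ531, CDK13 fell by 0.23 (adjusted p = 0.00246) and CCNK by 0.21 (adjusted p = 0.00149), with 16.3% of all genes called lower. CDK12 changed by -0.20 (adjusted p = 0.00687), which was not called without THZ531 replicate 1 (-0.16, adjusted p = 0.0563) or combination replicate 3 (-0.16, adjusted p = 0.0573). With the combinations against YKL alone, CDK12 changed by 0.16 at 500 nM (adjusted p = 0.0335, called under none of the 6 ways of leaving out 1 library, at 0.16 to 0.18, with 11.3% of all genes called higher) and by -0.01 at 2 µM (adjusted p = 0.94). The 2836 genes called in either direction at 500 nM numbered 799 without combination replicate 1, 1725 without YKL replicate 2, 676 with only the groups compared and 126 with spike-in scaling. At 2 µM, CDK12 and CDK13 were called lower with spike-in scaling (-0.43 and -0.46, adjusted p = 0.00414 and 0.00159, with the median gene at -0.37). CCNK at 2 µM changed by -0.17 (adjusted p = 0.00915, 13.3% called lower), a call lost without combination replicate 3 (-0.15, adjusted p = 0.0657). There 3757 genes were called in either direction, and 1980 without combination replicate 3, 2466 without YKL replicate 2 and 2323 with only the groups compared. Between the combinations, 2 µM against 500 nM, the changes were -0.19 for CDK12, -0.17 for CDK13 and -0.19 for CCNK (adjusted p = 0.0197, 0.0338 and 0.00791, 7.07% called lower). Each of these calls was lost without replicate 3 at 2 µM (-0.15, -0.12 and -0.17, adjusted p = 0.132, 0.247 and 0.0613). That of CDK12 was also lost without replicate 2 (-0.18) or 3 (-0.18) at 500 nM, and that of CDK13 without replicate 1 (-0.16) or 2 (-0.16) at 500 nM. With only the groups compared none of the 3 was called (adjusted p = 0.0987, 0.187 and 0.0866), and the count of genes called in either direction was 31, against 2164 in the fit of all groups, 936 without replicate 3 at 2 µM and 1001 without replicate 2 at 500 nM.

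The effect of adding YKL to THZ531 differed between the lines for CDK12. The difference, C312S minus WT, was 0.47 (0.30 to 0.63, adjusted p = 1.64e-05, 20.5% of all genes called higher) at 500 nM and 0.62 (0.46 to 0.78, adjusted p = 1.04e-07, 25.9% called higher) at 2 µM, and both passed the threshold on the total FPKM and spike-in scales. At 500 nM it was 0.02 for CDK13 (-0.14 to 0.19, adjusted p = 0.836) and 0.11 for CCNK (-0.03 to 0.26, adjusted p = 0.199). At 2 µM it was called for CDK13 (0.19, adjusted p = 0.0434) and CCNK (0.19, adjusted p = 0.0222) as well, calls that were lost without single libraries. This comparison was chosen with earlier results of the same data known, and it uses no DMSO library. Set directly against WT under the same treatment, C312S cells had more CDK12 with 500 nM YKL (22.1, 21.5 and 21.4 FPKM in C312S, against 15.2, 16.1 and 15.9 FPKM in WT) and with 2 µM YKL (21.2, 21.4 and 21.6 FPKM in C312S, against 16.2, 14.8 and 15.3 FPKM in WT). The groups did not overlap, and the log2 differences were 0.43 (adjusted p = 5.26e-08, 32.5% of all genes called higher) and 0.45 (adjusted p = 2.58e-08, 33.8% called higher). CDK12 was higher in C312S also with THZ531 plus YKL, by 0.32 at 500 nM (adjusted p = 9.81e-06, 31.9% called higher) and by 0.47 at 2 µM (adjusted p = 7.38e-09, 34.5% called higher). With equal total FPKM the difference of CDK12 was no longer called with 2 µM YKL (0.17, adjusted p = 0.0632) or with THZ531 plus 500 nM YKL (0.17, adjusted p = 0.0685). The median gene was at -0.25 and -0.14 in these comparisons. CDK13 was not called in any of the 4 comparisons with YKL, at -0.09 to 0.09 (adjusted p between 0.143 and 0.386). With equal total FPKM it was called lower in C312S with 500 nM YKL (-0.28), 2 µM YKL (-0.36) and THZ531 plus 500 nM YKL (-0.23). The median gene was at -0.20, -0.25 and -0.14 there. On the spike-in scale CDK13 was called higher with 500 nM YKL (0.28, median gene 0.33) and THZ531 plus 2 µM YKL (0.55, median gene 0.41). Without C312S replicate 3, CDK13 was called higher with THZ531 plus 2 µM YKL in the deposited FPKM (0.15, adjusted p = 0.0279). CCNK was higher in C312S with 2 µM YKL (0.16, adjusted p = 0.00659), although -0.14 with equal total FPKM (adjusted p = 0.0859, median gene -0.25). With THZ531 plus 2 µM YKL it differed by 0.12 (adjusted p = 0.0313), a call lost with equal total FPKM (0.09, adjusted p = 0.267) and, at 0.10 to 0.12, without WT replicates 2 or 3 or C312S replicates 1 or 2.

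With DMSO all 3 genes were lower in C312S than in WT, with log2 differences of -0.54 (CDK12), -0.52 (CDK13) and -0.50 (CCNK), with adjusted p of 2.61e-10, 1.2e-09 and 1.16e-10 and 37.9% of all genes called lower. With equal total FPKM these differences were -1.01, -0.95 and -0.99, with the median gene at -0.36, and with spike-in scaling -1.89, -1.77 and -1.89, with the median gene at -1.12. With THZ1 they were lower in C312S too, with differences of -0.26, -0.54 and -0.32 (adjusted p = 9.5e-05, 4.69e-10 and 9.85e-07, 37.9% called lower). On the spike-in scale that direction turned, to 0.44, 0.14 and 0.41, all below the median gene at 0.52. With GC and length trends removed the difference of CDK12 with THZ1 was no longer called (-0.08, adjusted p = 0.0849), while those of CDK13 (-0.26) and CCNK (-0.17) were. With THZ531, CDK12 differed by -0.15 (adjusted p = 0.0466, 13.5% called lower), a call lost without WT replicate 1 (-0.15, adjusted p = 0.0811) or 2 (-0.11, adjusted p = 0.196) and without C312S replicate 2 (-0.13, adjusted p = 0.146) or 3 (-0.12, adjusted p = 0.157). The change from DMSO differed between the lines in most comparisons, with the higher value in C312S. The share of all genes whose difference was called higher in C312S was 32.7% with THZ531, 22.4% with THZ1, 34.7% with 500 nM YKL, 34.4% with 2 µM YKL, 35.1% with THZ531 plus 500 nM YKL and 37.5% with THZ531 plus 2 µM YKL. The differences of the 3 genes in them ranged from -0.02 to 1.01.

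Ratios between the genes within a library do not depend on any scaling of the library. The level of CDK12 over that of CDK13 averaged 2.32 ± 0.0339 in WT THZ531 cells, 1.83 ± 0.0745 with THZ1, 1.58 ± 0.0345 with 500 nM YKL, 1.52 ± 0.0277 with 2 µM YKL, 1.75 ± 0.0772 with THZ531 plus 500 nM YKL and 1.77 ± 0.0638 with THZ531 plus 2 µM YKL, against 2.12 ± 0.0871 with DMSO. In C312S cells the 7 group means were between 2.14 and 2.34. The 5 WT groups with YKL or THZ1 were thus below every other group. Against DMSO alone, 36 exact permutation tests of 3 against 3 libraries (two-sided, 20 relabellings each) could not go below p = 0.1, and none passed after adjustment (lowest adjusted p = 0.157).

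YKL was also set against no YKL within the libraries without and with THZ531, in 12 exact two-sided permutation tests of 400 relabellings. This set of 12 was added only following a look at the same libraries, so its p-values are descriptive. In WT cells the log2 ratio of CDK12 to CDK13 differed by -0.42 with 500 nM YKL and by -0.44 with 2 µM YKL, each with p = 0.005, the smallest these permutations can give, and adjusted p = 0.015. The log2 ratio of CDK12 to CCNK differed by -0.34 and -0.37 (adjusted p = 0.015 each in the same exact tests). For CDK13 to CCNK the differences were 0.08 and 0.07 (adjusted p = 0.129 and 0.378, exact). In C312S cells the ratio of CDK12 to CDK13 differed by 0.07 and 0.06 (p = 0.075, adjusted p = 0.129, exact, for both doses), and whether the lines differ in this ratio was not tested. THZ531 present against absent within the 3 YKL levels, in 6 exact tests of 8000 relabellings, gave a log2 ratio of CDK12 to CDK13 higher by 0.17 in WT cells (p = 0.00025, the smallest these permutations can give, adjusted p = 0.0005) and by 0.06 in C312S cells (p = 0.0462, adjusted p = 0.0555). The ratio of CDK12 to CCNK was higher by 0.19 in WT cells (adjusted p = 0.00075, exact) and by 0.18 in C312S cells (adjusted p = 0.0005, exact). The ratio of CDK13 to CCNK differed by 0.02 in WT cells (adjusted p = 0.613, exact) and by 0.13 in C312S cells (adjusted p = 0.0005, exact).

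**Figure D4:**
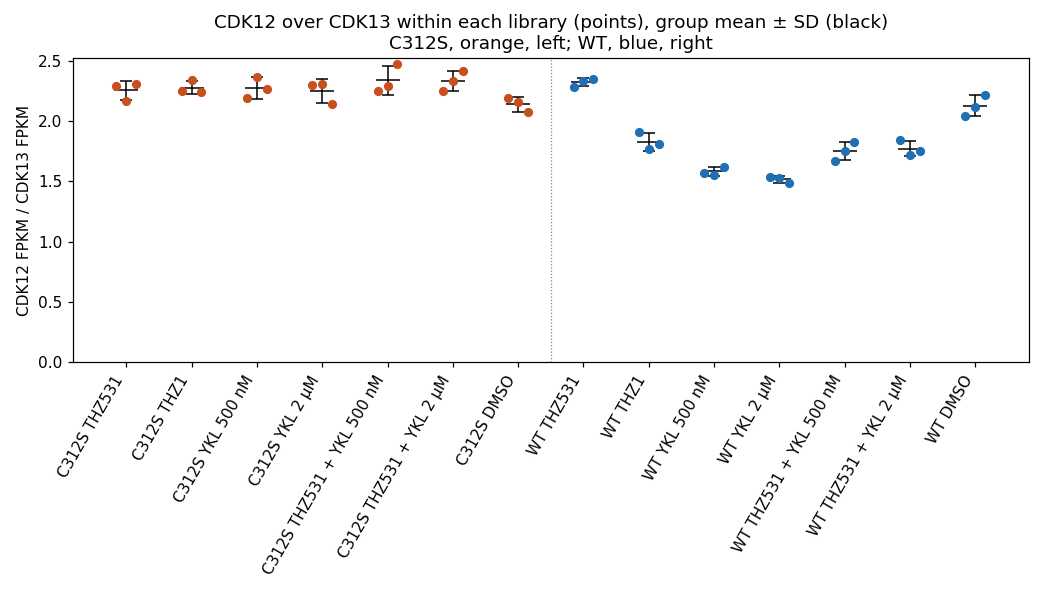
CDK12 FPKM over CDK13 FPKM (vertical axis, from 0) within each library (points) of the 14 groups (horizontal axis), with group means and SD in black. The WT groups with YKL or THZ1 average between 1.52 and 1.83, while the other groups average between 2.12 and 2.34.

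CCNK shares its locus with SETD3, a histidine methyltransferase of actin, and CCDC85C in the RefSeq annotation, and the sources used here do not say whether reads were counted by strand. SETD3 moved the other way in several comparisons in which CCNK was called: with THZ531 plus 2 µM YKL in WT cells it changed by 0.54 (adjusted p = 2.99e-14), and CCDC85C by -0.75 (adjusted p = 5.81e-12), while CCNK fell by 0.21. With THZ531 in C312S cells SETD3 changed by -0.34 and CCDC85C by 0.64 (adjusted p = 1.56e-09 and 2.95e-10). In other comparisons SETD3 was called in the direction of CCNK: with THZ531 in WT cells (0.11, adjusted p = 0.0162), THZ1 in WT cells (0.12, adjusted p = 0.00588) and THZ1 in C312S cells (0.22, adjusted p = 5.67e-06). CCDC85C was called higher, as CCNK was, with every treatment against DMSO in C312S cells, at 0.35 to 0.82. In WT cells it was not called with THZ531 (-0.02) or THZ1 (0.07), where CCNK was called higher. The values of CCNK carry that uncertainty, and those of CDK12 and CDK13 may share reads at their similar kinase domains.

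Over the 14 group means, the Pearson r was 0.93 for CDK13 and CCNK, 0.847 for CDK12 and CCNK and 0.698 for CDK12 and CDK13. The Spearman rho was 0.859, 0.868 and 0.635, so CDK12 and CDK13 were the least alike pair by both measures and the order of the other pairs depended on the measure. These are descriptions across the same 14 groups, with no test. Without C312S DMSO and C312S THZ1 the r was 0.833, 0.835 and 0.565 and the rho 0.783, 0.874 and 0.559. Among 8532 candidate genes, the pattern most like that of CDK12 was that of TEAD4 (r = 0.966), a transcription factor of the Hippo pathway, followed by DIDO1 (0.952), MTR (0.951), NOM1 (0.945) and CIT (0.944). The pattern most like that of CDK13 was that of RANBP2 (0.966), a nuclear pore protein, followed by AGO1 (0.963), GOLGA4 (0.961), NIPBL (0.96) and HK1 (0.96). That most like CCNK was the pattern of TAF1 (0.983), a subunit of TFIID, followed by NFATC3 (0.971), BDP1 (0.965) and TBC1D4 (0.964). These lists depend on the measure and on the groups used. With Spearman correlation the lists of all 3 genes changed. Without the 2 C312S groups that stood apart, 0 of the 5 genes most like CDK12 were still among its 5 most alike, against 2 of 5 for CDK13 and 2 of 5 for CCNK. The first 5 for CDK12 still had r of 0.934 to 0.961 over those 12 groups, and the lowest of the new 5 had 0.963.

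Other genes of the pathway moved in both directions in WT cells given THZ531. Of 15 other transcriptional kinases and cyclins, 6 rose and 2 fell, beside 24.0% of all genes called higher and 22.9% called lower. CDK9, the kinase that releases paused polymerase, fell by 0.36 (14 ± 0.275 FPKM with THZ531, against 18.3 ± 0.821 FPKM with DMSO, adjusted p = 5.28e-05), and CDK10 fell by 0.46. CDK8, the Mediator kinase, rose by 0.35, CCNH, the cyclin of CDK7, by 0.29 and CCNT2, a cyclin of CDK9, by 0.20. Of 29 CTD and elongation factors, 14 rose and 3 fell. HEXIM1, an inhibitor of CDK9, rose by 0.53 (11.8 ± 0.33 FPKM with THZ531, against 7.9 ± 0.658 FPKM with DMSO, adjusted p = 1.1e-10), CTR9, a subunit of the PAF complex, by 0.43 and PCF11, a cleavage and polyadenylation factor, by 0.32. PCIF1, a cap methyltransferase, fell by 0.53 and SSU72, a CTD phosphatase, by 0.29. The median change was 0.08 for each of these lists, beside 0.01 over all tested genes.

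Of 38 DNA repair genes that have been reported as dependent on CDK12, 15 rose and 10 fell with THZ531 in WT cells, with a median of 0.08. Of all tested genes, 24.0% were called higher and 22.9% lower there. BRCA1, of homologous recombination, fell by 0.46 (12.3 ± 0.39 FPKM with THZ531, against 17.2 ± 0.76 FPKM with DMSO, adjusted p = 2.73e-08), XRCC3, of the same pathway, by 0.55 and ORC3, of the origin recognition complex, by 0.58. FANCA, of the Fanconi anemia core complex, rose by 0.73 (22.6 ± 0.825 FPKM with THZ531, against 13.2 ± 0.644 FPKM with DMSO, adjusted p = 3.05e-14), NBN, of the MRN complex, by 0.38 and RBBP8, of DNA end resection, by 0.37. With THZ1 in WT cells, 3 of the 38 rose and 21 fell, with a median of -0.18, beside -0.01 over all genes, of which 34.0% were called higher and 34.8% lower. BRCA1 fell by 0.98, XRCC3 by 0.91 and ORC3 by 0.77, while FANCA rose by 0.81, FANCM by 0.52 and RBBP8 by 0.40. Of the CTD and elongation factors 20 rose and 5 fell with THZ1, with a median of 0.33. POLR2A, the largest subunit of RNA polymerase II, rose by 1.79 (200 ± 8.53 FPKM with THZ1, against 57.5 ± 7.09 FPKM with DMSO), HEXIM1 by 1.52 and CTR9 by 0.97, and SSU72 fell by 0.79, PAF1 by 0.28 and IWS1 by 0.27. Of the kinases and cyclins 6 rose and 7 fell with THZ1, with a median of -0.04. CDK11B rose by 0.44, CCNT1 by 0.42 and CCNH by 0.40, and CDK9 fell by 0.55, CDK10 by 0.55 and CCNC by 0.49. On the spike-in scale the median gene fell by 1.99 with THZ1, more than any of these genes rose.

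The lists had other counts under other treatments. With THZ531 in C312S cells 9 of the 38 repair genes rose and 21 fell, with a median of -0.20, beside 34.6% of all genes called higher and 39.5% called lower and a median of -0.03 over all genes. Of the kinases and cyclins 4 rose and 9 fell there (median -0.38), and of the CTD and elongation factors 19 rose and 7 fell (median 0.26). That comparison uses the C312S DMSO libraries. With YKL in WT cells 7 of the repair genes rose and 18 fell at 500 nM (median -0.11, beside 31.3% of all genes called higher and 31.7% lower), and 7 rose and 22 fell at 2 µM (median -0.21, beside 31.8% called higher and 33.5% lower).

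**Figure D5:**
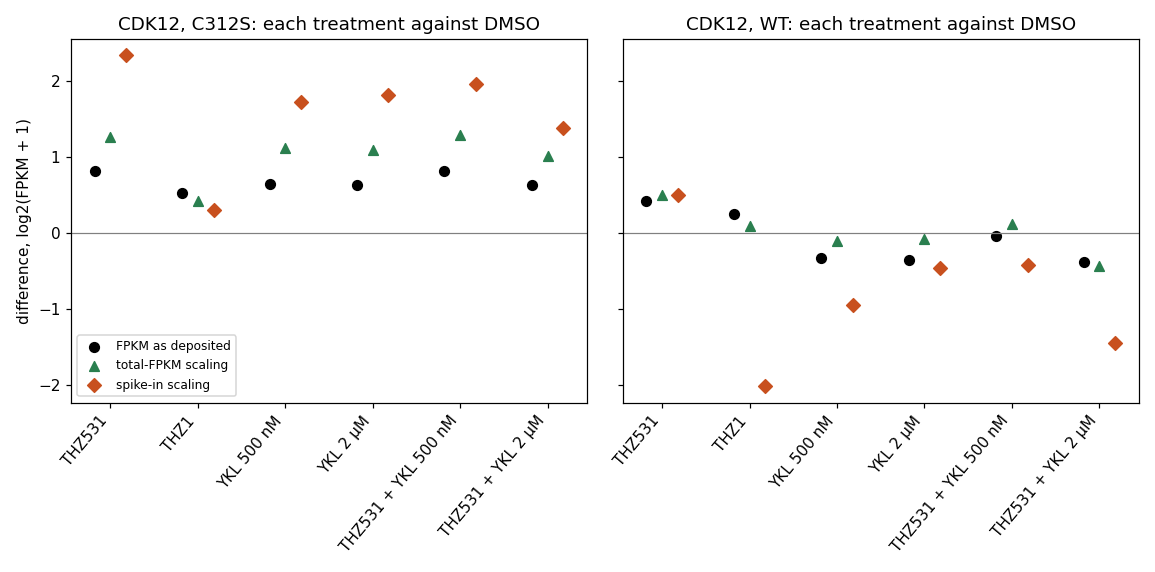
Difference of CDK12 from DMSO in log2(FPKM + 1) (vertical axis) for each treatment (horizontal axis) in C312S cells (left) and WT cells (right), with FPKM as deposited (circles), scaled to equal total FPKM (triangles) and scaled to spike-ins (diamonds). With THZ1 in WT cells CDK12 is at 0.25 as deposited and at -2.02 on the spike-in scale, and with THZ531 in WT cells the 3 points lie on the same side of 0.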

How the data were processed

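The deposited values are FPKM per gene, which the authors made for 42 libraries. HISAT2 2.0.4, Cufflinks 2.2.1, Cuffnorm and the build hg19 stand in the submitters' processing notes in no order, and the sources used here do not give the normalization setting. A stranded kit is named in the labels' protocols. The table has 26320 rows, 92 of them spike-in RNAs, and no read counts, so intervals cover the spread between libraries only. A total of 0 columns stayed unmatched, and 0 library pairs held identical values.

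The 12816 genes that reached 1 FPKM in 3 or more libraries were fitted with R 4.3.3, limma 3.58.1 and the data.table package (1.17.8) on log2(FPKM + 1), which understates changes of low genes. The 14 group means shared 1 spread estimate with a trend on expression, and p-values were Benjamini-Hochberg adjusted within each of 41 comparisons (threshold 0.05). Only the members' results, and those of listed genes, are printed. The fit was tested on simulated data. Ratios were tested by exact permutation. Spike-in scaling used only the 23 spike-ins above 1 FPKM in all libraries. The 10376 genes above 1 FPKM in all libraries gave the gene level that the spike-in RNAs were compared with, and did not enter that scaling. Alternatives were a pseudocount of 0.1, no filter, median-ratio, total FPKM and spike-in scaling, only the groups compared, the replicate number as a block, leaving out each library, and, chosen after seeing the data, removal of GC and length trends, the comparisons of SETD3 and CCDC85C, YKL within THZ531 strata, the order of group means under scalings, and similar genes in 12 groups. GC content came from GENCODE transcripts for 98.2% of tested genes. Promoter windows are RefSeq's, and CDK13 has another listed start, not used here.

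The members and lists were chosen with earlier results of these data known. Named genes are the members, the 5 genes per member with the highest Pearson correlation over the 14 group means (mean of at least 5 FPKM, no exact 0, no short RNA), and, per pathway list in WT THZ531 and WT THZ1, up to 3 rising and 3 falling called genes with the smallest p and at least 5 FPKM in a compared group. Some genes that this rule names are not reported here. Python 3.11.15 with pandas 2.3.3, numpy 2.4.6 and matplotlib 3.10.9 made the ratios and plots.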

Additional observations from a re-analysis of the deposited data

Results flagged for a closer look

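The change against DMSO differed between the lines (C312S minus WT, log2, limma interaction) for most treatments, and all of these values use the C312S DMSO libraries that stood apart. Between 22.4% and 37.5% of all genes were called higher in these differences, so such a call is common. For CDK12 the difference was 0.39 with THZ531, 0.28 with THZ1, 0.97 with 500 nM YKL, 0.99 with 2 µM YKL, 0.86 with THZ531 plus 500 nM YKL and 1.01 with THZ531 plus 2 µM YKL. For CDK13 it was 0.42 with THZ531, 0.46 with 500 nM YKL, 0.43 with 2 µM YKL, 0.44 with THZ531 plus 500 nM YKL and 0.61 with THZ531 plus 2 µM YKL. For CCNK it was 0.43 with THZ531, 0.61 with 500 nM YKL, 0.66 with 2 µM YKL, 0.54 with THZ531 plus 500 nM YKL and 0.62 with THZ531 plus 2 µM YKL. The adjusted p of these values lay between 4.31e-13 and 0.00492. With only the groups compared the CDK12 difference with THZ1 was not called (0.28, adjusted p = 0.0595). With spike-in scaling the differences over the 6 treatments were 1.84 to 2.84 for CDK12, 1.62 to 2.31 for CDK13 and 1.92 to 2.51 for CCNK, with the median gene between 1.09 and 1.85. For CCNK with THZ1 the difference in the deposited FPKM was 0.18 (adjusted p = 0.035), and 0.13 to 0.17 without WT DMSO replicate 1, WT THZ1 replicate 1, C312S DMSO replicate 1 or C312S THZ1 replicates 1 or 2, where the adjusted p was 0.0741 to 0.149. This CCNK call was also lost with only the groups compared (0.18, adjusted p = 0.152). For CDK13 with THZ1 the difference of -0.02 was not called (adjusted p = 0.854).

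Without DMSO libraries, the change with THZ531 plus YKL against THZ531 also differed between the lines (C312S minus WT, log2). For CDK12 the difference was 0.47 at 500 nM (20.5% of all genes called higher) and 0.62 at 2 µM (25.9% called higher). At 2 µM it was 0.19 for CDK13 (adjusted p = 0.0434) and 0.19 for CCNK (adjusted p = 0.0222). The call of CDK13 was lost without WT THZ531 replicates 1 or 2, WT combination replicates 1 or 2, C312S THZ531 replicates 2 or 3, or C312S combination replicates 1 or 2, at differences of 0.15 to 0.20. The call of CCNK was lost without WT THZ531 replicate 1, WT combination replicate 2, C312S THZ531 replicate 2 or C312S combination replicate 1, at differences of 0.15 to 0.17.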

How the results depend on the processing

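The values below are log2 changes, to be read beside the median gene of each scale where it is given above. On the spike-in scale, WT THZ1 against DMSO turned to -2.02 (CDK12), -1.71 (CDK13) and -2.11 (CCNK). WT YKL 500 nM gave -0.53 (CDK13) and -0.68 (CCNK), WT THZ531 plus 500 nM YKL -0.42 (CDK12), -0.15 (CDK13) and -0.32 (CCNK), C312S THZ1 0.31 (CDK12), 0.20 (CDK13) and 0.19 (CCNK), and WT THZ531 0.26 (CCNK). The mean effect of THZ531 in WT became 0.016 (CDK12) and -0.17 (CCNK). WT YKL 2 µM against 500 nM became 0.49 for CDK12 and 0.49 for CCNK, C312S against WT under THZ1 0.44 (CDK12), 0.14 (CDK13) and 0.41 (CCNK), under YKL 500 nM 0.28 (CDK13), and the line difference in THZ1 1.91 (CDK13). Called genes numbered 3309 in WT THZ531, 5047 in C312S THZ1 and 10999 for the mean effect of THZ531 in C312S. With equal total FPKM, WT THZ1 gave 0.087 (CDK12) and 0.058 (CCNK), WT YKL 500 nM -0.10 (CDK12), 0.29 (CDK13) and 0.20 (CCNK), WT YKL 2 µM -0.08 (CDK12), 0.37 (CDK13) and 0.21 (CCNK), WT THZ531 plus 500 nM YKL 0.22 (CCNK), and C312S against WT under YKL 2 µM -0.14 (CCNK). With median-ratio scaling CDK13 was called in WT YKL 2 µM (0.13). With GC and length trends removed, CCNK was at -0.10 in WT YKL 2 µM, CDK12 at -0.12 in WT THZ531 plus 500 nM YKL, and CDK13 at -0.073 in WT THZ531 plus 2 µM YKL and at 0.075 for the mean effect of THZ531 in WT. With only the groups compared CDK13 was at -0.14 (adjusted p = 0.0989) in WT THZ531 plus 2 µM YKL, which leaving out single libraries moved between -0.18 and -0.11. The C312S ratio of CDK12 to CDK13 under THZ531 was 0.069 (adjusted p = 0.0186) with a pseudocount of 1, and 0.042 to 0.065 without single libraries. The causes were not tested.

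Replicate numbers did not pair the libraries (correlations of same-numbered deviations between -0.158 and 0.248). With the replicate block, the calls of CDK13 in WT THZ531 plus 500 nM YKL against YKL 500 nM (0.14, adjusted p = 0.0533) and of CDK12 in C312S against WT under THZ531 (-0.15, adjusted p = 0.0555) were lost, and no other call of a member changed. Depth limits cannot be given without counts.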
